A study of Mus musculus with 12 samples.

Results

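The genes described here are 39 members of the crypt stem cell and Wnt programme, taken by name from the 54532 genes of the count table. They were grouped by their known roles, as 13 stem cell markers, 6 Wnt feedback or target genes, 5 receptors, 3 nuclear factors, 5 genes for Wnt ligands or their secretion, 3 R-spondins and 4 secreted inhibitors. All 39 were found, and all 39 were among the 24102 genes with an FPKM (fragments per kilobase of gene, scaled to the library's size) of at least 0.1 in at least 3 libraries, which were tested. The first 4 roles, 27 genes, are called the epithelial side below, and the ligands, R-spondins and inhibitors, 12 genes, the stromal side, after the cells best known for making them.

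The study asked what loss of STING in myeloid cells does in colitis, and this was read from RNA of colon tissue with 1 library per mouse. Tmem173fl/fl mice (labelled WT) carry floxed alleles of Tmem173, the gene of STING, and no Cre. Their littermates, Tmem173iΔmye mice (labelled CRE), also carry Lyz2-Cre ert2, a Cre that tamoxifen switches on and the Lyz2 gene drives in macrophages, monocytes and neutrophils and not in the epithelium or the fibroblasts. The paper also treats dendritic cells grown from the bone marrow of these mice as lacking STING. All mice were on the C57BL/6N background, 6 to 8 weeks old, and had 5 tamoxifen injections. Untreated mice drank water, and colitic mice had dextran sulfate sodium (DSS), a chemical that damages the epithelium of the colon, in it for 7 days. The paper's acute model then gave 1 day of water. Each of the 4 groups holds 3 mice, and the colitic Tmem173iΔmye libraries are numbered 1, 2 and 5.

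Stem cells at the base of each colon crypt renew the epithelium, and they need Wnt signals to do so. Wnt proteins bind Frizzled receptors with the co-receptors Lrp5 and Lrp6, beta-catenin then enters the nucleus and joins TCF and LEF proteins on DNA, and R-spondins strengthen the signal by binding Lgr4 and Lgr5 and clearing the receptor-degrading ligases Rnf43 and Znrf3. In the colon, fibroblasts and other stromal cells beneath the crypt are a main source of Wnt proteins, R-spondins and secreted inhibitors, whereas the epithelium carries the receptors and the stem cell markers.

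Library totals ran from 13823237 to 18718915 counts, so depth differed little between mice. Tmem173 itself did not pass the test between colitic genotypes (log2 fold change -0.28, edgeR adjusted p 0.602), and a count of the whole gene does not show whether the floxed exons were lost. The paper reports a smaller rise of Tmem173 mRNA in inflamed colon of the knockout mice, from its own measurement. It also reports loss of STING staining in their myeloid cells. Epithelial markers were present in every group: the summed level of 11 such genes was 12520 to 15760 CPM (counts scaled to a common library size by TMM) in untreated Tmem173fl/fl, 13070 to 15840 in untreated Tmem173iΔmye, 4716 to 8045 in colitic Tmem173fl/fl and 10030 to 11900 in colitic Tmem173iΔmye mice. For 14 fibroblast markers the sums were 1633 to 1899, 1623 to 2020, 9918 to 12500 and 3126 to 4684 CPM in the same order. Pancreas enzyme genes, which colon does not make, summed to between 0 and 8920 CPM, with the most in replicates 1 and 2 of colitic Tmem173fl/fl and replicate 1 of colitic Tmem173iΔmye mice. Reads of Xist and Y-linked genes had a female pattern in 3 libraries (the replicates 3 of the untreated groups and colitic Tmem173iΔmye replicate 5). In bulk tissue, fewer cells of a type and less RNA per cell cannot be told apart.

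On the FPKM scale, which allows levels of different genes to be compared, Lgr4 was the highest member in untreated Tmem173fl/fl colon at 46.6 ± 4.17 FPKM (SD, n = 3). Prom1 followed at 29.1 ± 13.7 and Lrig1 at 25.1 ± 4.18 FPKM, which did not differ beyond their spread. The markers held to be most restricted to the crypt base were low in this whole-tissue RNA: Lgr5 was at 1.13 ± 0.564 and Ascl2 at 3.57 ± 0.667 FPKM. Notum, at 0.0794 ± 0.0648, and Olfm4, at 0.0305 ± 0.0337 FPKM, were close to 0. Among the genes counted as stromal, Wls led with 20.1 ± 3.15 FPKM, though it serves every Wnt-secreting cell. Dkk3 at 9.90 ± 0.676 and Sfrp1 at 7.29 ± 0.296 followed. In colitic Tmem173fl/fl colon the order was another one, with Sfrp1 at 68.0 ± 10.6 and Prom1 at 61.4 ± 28.1 FPKM on top, which did not differ beyond their spread, and Lgr5 at 0.0855 ± 0.0418.

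The comparison of colitic with untreated Tmem173fl/fl mice shows what DSS does when myeloid STING is intact. The crypt base genes Lgr5 and Ascl2 and the Wnt feedback gene Axin2 fell, while the Wnt ligands, the R-spondins Rspo1 and Rspo3 and the inhibitors Sfrp1, Dkk2 and Dkk3 rose. A gene was called where edgeR gave a Benjamini-Hochberg adjusted p under 0.05 over all genes tested and the absolute log2 fold change was at least 1. By this rule 22 of 39 members were called, 15 higher and 7 lower, against 22.5% of all genes tested (14.9% higher and 7.61% lower). On the epithelial side 6 members rose, 7 fell and 14 were not called, with a median log2 fold change of -0.16. On the stromal side 9 of 12 rose and 0 fell, with a median of 2.04, and the median of all genes was 0.03. Without overlap between the groups 15 members lay higher and 12 lower, against 23.9% and 25.4% of all genes, and 27 members had an adjusted p under 0.05 at any fold, against 35.4% of all genes. The count of called members ran from 19 to 22 when any 1 library was left out.

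Lgr5, the R-spondin receptor that marks cycling crypt base stem cells, was at 5.07, 14.9 and 15.7 CPM in the 3 untreated Tmem173fl/fl mice and at 1.35, 0.568 and 0.681 CPM in the 3 colitic ones. All colitic mice lay below all untreated mice, although the lowest untreated mouse had less than the other two. Between them the log2 fold change was -3.70 (SE 0.49, edgeR adjusted p 0.00031).

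Ascl2, a transcription factor needed by Lgr5+ cells, was at 6.51, 4.67 and 6.64 CPM without and 0.217, 0.284 and 0.613 CPM with DSS. Among the members that fell its log2 fold change was the largest, at -3.96 (SE 0.42, edgeR adjusted p 7.2e-05), though it did not differ from that of Lgr5 beyond the SE. Ephb3, an ephrin receptor that keeps cells in place along the crypt, went from 34.2, 41.0 and 47.1 CPM to 20.6, 12.1 and 14.8 CPM (log2 fold change -1.30, SE 0.21, edgeR adjusted p 0.0011). Its relative Ephb2, at -0.58, did not pass (edgeR adjusted p 0.087).

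Sox9, a transcription factor of crypt progenitors, was at 55.8, 76.5 and 64.3 CPM in untreated and 33.2, 19.8 and 37.8 CPM in colitic Tmem173fl/fl mice, again with no overlap. The log2 fold change of Sox9 was -1.05 (SE 0.23, edgeR adjusted p 0.0050), close to the fold threshold, and it was -0.84 without replicate 2 of the colitic and -0.93 without replicate 2 of the untreated group.

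Not all markers moved this way, and 3 of the 13 rose. Smoc2, which encodes a secreted matrix-associated protein, went from 34.9, 42.0 and 42.5 CPM to 118, 74.9 and 118 CPM (log2 fold change 1.45, SE 0.19, edgeR adjusted p 0.00026). Msi1, an RNA-binding protein, went from 0.681, 2.1 and 1.5 CPM to 6.28, 6.20 and 5.31 CPM (log2 fold change 2.11, SE 0.37, edgeR adjusted p 0.0016). Both genes had every colitic mouse above every untreated mouse, in the opposite direction from Lgr5. Fibroblast markers rose between the same groups (median log2 fold change 2.37). Which cells of the tissue gave the added Smoc2 or Msi1 RNA was not tested, so these rises are not shown to be in the epithelium.

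Olfm4, a stem cell marker of the mouse small intestine that mouse colon crypts hardly express, had 4 counts over the 3 untreated libraries and 193 over the 3 colitic ones. The levels were 0.0757, 0.203 and 0 CPM without and 3.14, 3.46 and 4.22 CPM with DSS. The rise was called (edgeR adjusted p 0.00012), at a ratio of 39.1, with an exact 95% interval of 15 to 145 that covers counting error only. Olfm4 reached the FPKM filter only through the colitic Tmem173fl/fl libraries, all 3 of which lay above 0.1 FPKM along with 2 of the other 9, so its call is no support for the count of members.

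The other 6 stem cell markers were not called. Lrig1, which restrains growth factor receptors, stayed at 117 to 161 CPM without and 133 to 151 CPM with DSS (log2 fold change 0.04, SE 0.15). Prom1, the cell surface protein CD133, differed by 1.09 (SE 0.40, edgeR adjusted p 0.057). Cd44, a hyaluronan receptor, was higher by 0.83 (edgeR adjusted p 0.0077) and Bmi1, a Polycomb protein, by 0.41 (edgeR adjusted p 0.048), both under the 2-fold threshold. Tnfrsf19, a Wnt-responsive receptor, was at -0.60 (edgeR adjusted p 0.30).

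Of the 6 feedback or target genes 2 fell, 1 rose and 3 were not called. Axin2, a scaffold of the beta-catenin destruction complex and a widely used readout of Wnt signalling, was at 57.5, 47.8 and 42.3 CPM in untreated and at 10.4, 8.61 and 6.74 CPM in colitic Tmem173fl/fl mice. The groups were well apart, and Axin2 fell by 2.44 on the log2 scale (SE 0.20, edgeR adjusted p 1.5e-05). Rnf43, the ligase that removes Frizzled receptors, went from 33.3, 35.7 and 35.2 CPM to 12.1, 9.37 and 19.1 CPM (log2 fold change -1.30, SE 0.24, edgeR adjusted p 0.0020).

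Nkd1, an inhibitor that Wnt signalling induces, went the other way. It rose from 9.39, 11.3 and 12.6 CPM to 37.8, 34.9 and 25.1 CPM, with no overlap (log2 fold change 1.62, SE 0.20, edgeR adjusted p 0.00020). Myc, the proto-oncogene and beta-catenin target, was at 28.6, 30.6 and 28.1 CPM without and 28.1, 28.4 and 33.4 CPM with DSS, so the ranges overlapped (log2 fold change 0.11, SE 0.14, edgeR adjusted p 0.58). Znrf3, the second such ligase, differed by -0.16 (SE 0.21). Notum, a secreted enzyme that inactivates Wnt proteins, stayed at 0.376 CPM or below in these libraries.

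Among the receptors Lgr4, the R-spondin receptor that is present along the whole crypt, was the only one called. It went from 277, 260 and 307 CPM to 125, 89.2 and 148 CPM, with no overlap (log2 fold change -1.15, SE 0.19, edgeR adjusted p 0.0012). Without replicate 2 of the colitic group the change was -0.99, just under the fold threshold. Fzd5, the main Frizzled of the intestinal epithelium, differed by -0.55 (edgeR adjusted p 0.032), Lrp6 by -0.34 (edgeR adjusted p 0.087), Fzd7 by -0.09 and Lrp5 by 0.29.

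The 3 nuclear factors did not move together. Tcf7l2, the TCF protein that drives Wnt targets in the gut epithelium, was at 128, 122 and 110 CPM in untreated and 81.0, 64.5 and 75.8 CPM in colitic mice (log2 fold change -0.63, SE 0.14, edgeR adjusted p 0.0048), with no overlap but under 2-fold. Tcf7, which is also a transcription factor of T cells, went from 15.9, 11.3 and 11.8 CPM to 32.5, 49.1 and 14.8 CPM (log2 fold change 1.38, SE 0.36, edgeR adjusted p 0.014). Lef1, present in lymphocytes as well, went from 4.16, 2.37 and 1.56 CPM to 5.96, 10.8 and 3.61 CPM (log2 fold change 1.42, SE 0.46, edgeR adjusted p 0.035).

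For both Tcf7 and Lef1 colitic replicate 3 overlapped the untreated range, and replicate 2 was highest. B cell markers (6 of 6 measured) ran in the same order over those mice, with sums of 127, 222 and 40.0 CPM for replicates 1, 2 and 3, and T cell markers (10 of 10 measured) with 108, 159 and 62.8 CPM, against 66.9 to 131 and 138 to 170 CPM in untreated Tmem173fl/fl mice. The part of lymphocytes in the change of Tcf7 and Lef1 was not tested. Without replicate 2 of the colitic group, neither was called (Tcf7 0.91, edgeR adjusted p 0.037; Lef1 0.89, edgeR adjusted p 0.15). Without replicate 3 of the untreated group the edgeR adjusted p was 0.063 for Tcf7 and 0.12 for Lef1, without its replicate 2 it was 0.053 and 0.10, and Lef1 alone lost its call without replicate 1 of the colitic group (edgeR adjusted p 0.056).

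**Figure D1:**
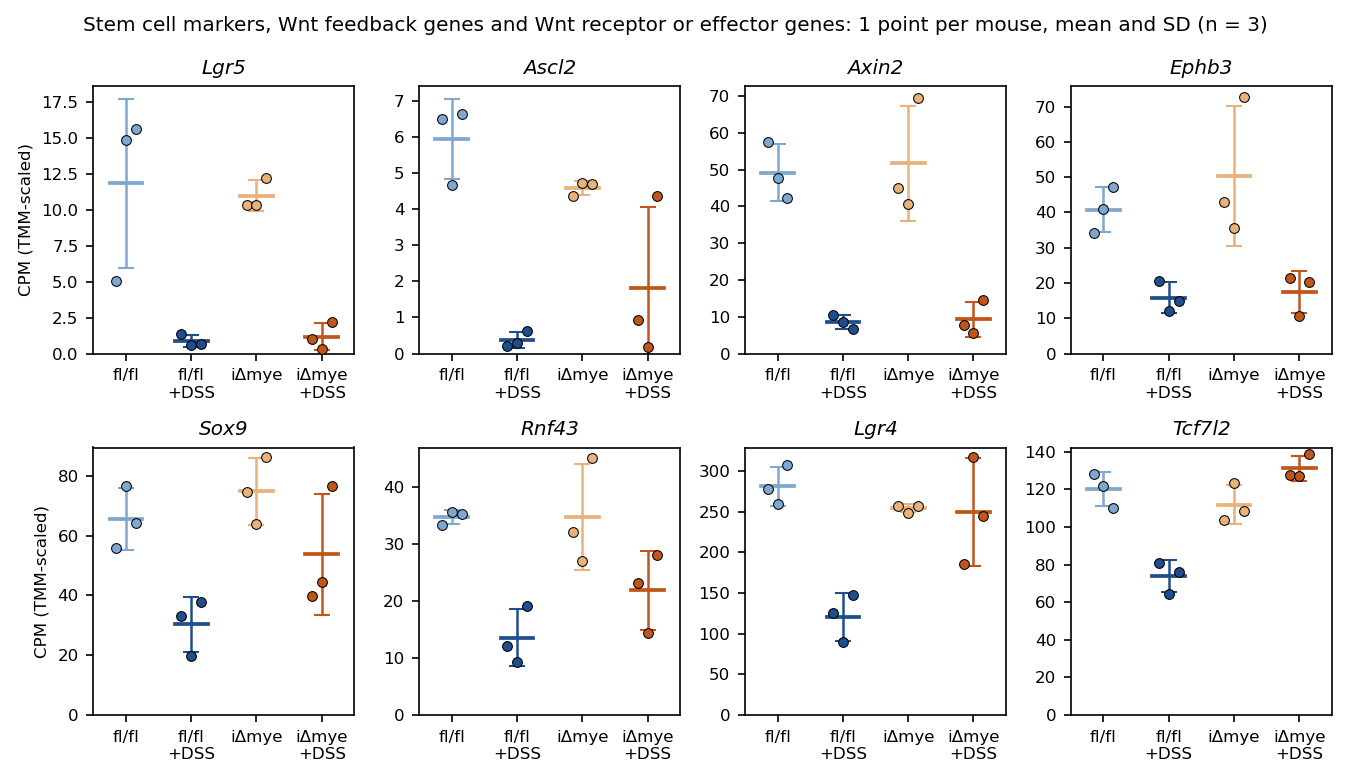
Levels of 8 epithelial members in CPM (TMM-scaled, linear axes from 0), 1 point per mouse, with the mean as a bar and the SD as whiskers for the 3 mice of each group. Lgr5 and Axin2 are lower in all colitic mice than in all untreated mice of both genotypes. In Tmem173fl/fl mice the colitic points of Lgr4 and Tcf7l2 lie below the untreated points. In Tmem173iΔmye mice the colitic points of Tcf7l2 lie above the untreated points, and those of Lgr4 lie on both sides of them.

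On the stromal side all 4 Wnt ligands rose. Wnt5a, a ligand best known for signalling without beta-catenin, went from 16.7, 13.3 and 13.5 CPM to 75.1, 48.8 and 70.6 CPM (log2 fold change 2.23, SE 0.19, edgeR adjusted p 2.0e-05). Wnt2b, a beta-catenin-dependent ligand of the gut stroma, went from 5.53, 8.66 and 8.26 CPM to 32.8, 31.9 and 26.7 CPM (log2 fold change 2.09, SE 0.21, edgeR adjusted p 4.9e-05). Both ligands were higher in every colitic mouse than in any untreated one.

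Wnt6 was lower in level, at 1.29, 1.76 and 0.313 CPM without and 7.58, 6.39 and 2.93 CPM with DSS (log2 fold change 2.42, SE 0.54, edgeR adjusted p 0.0064). Wnt4 went from 6.28, 3.11 and 4.07 CPM to 19.5, 10.9 and 6.81 CPM (log2 fold change 1.54, SE 0.39, edgeR adjusted p 0.012). The colitic values of both were spread, and the call of Wnt4 was lost without replicate 1 of the colitic group (edgeR adjusted p 0.056) or replicate 3 of the untreated group (edgeR adjusted p 0.055). Wls, the carrier that brings Wnt proteins to the cell surface in every Wnt-secreting cell, differed in the other direction, by -0.83 (SE 0.16, edgeR adjusted p 0.0025), which is under 2-fold.

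Among the R-spondins, Rspo3, held to be the main one of the colon stroma, went from 3.63, 3.38 and 7.2 CPM to 31.9, 32.3 and 28.4 CPM (log2 fold change 2.76, SE 0.29, edgeR adjusted p 6.5e-05). Rspo1 went from 1.82, 1.49 and 0.626 CPM to 11.6, 7.67 and 8.85 CPM (log2 fold change 2.92, SE 0.37, edgeR adjusted p 0.00022). Neither had any overlap, while Rspo2 stayed at 1.0 CPM or below in these libraries (log2 fold change 0.79, SE 0.78).

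Sfrp1, a secreted decoy that binds Wnt proteins, was at 32.0, 32.0 and 34.1 CPM in untreated and at 342, 291 and 249 CPM in colitic mice. Among the stromal members its rise was the largest, a log2 fold change of 3.24 (SE 0.17, edgeR adjusted p 1.2e-06). Dkk3, a Dickkopf family protein, went from 33.3, 32.4 and 36.6 CPM to 116, 126 and 97.2 CPM (log2 fold change 1.8, SE 0.14, edgeR adjusted p 1.3e-05).

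Dkk2, which blocks the Lrp co-receptors, went from 1.59, 1.08 and 2.88 CPM to 8.67, 5.82 and 6.87 CPM (log2 fold change 2.0, SE 0.37, edgeR adjusted p 0.0021). In all 3 inhibitors the colitic mice lay above the untreated mice. Wif1, another Wnt-binding inhibitor, differed by 0.28 (SE 0.47) and was not called.

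**Figure D2:**
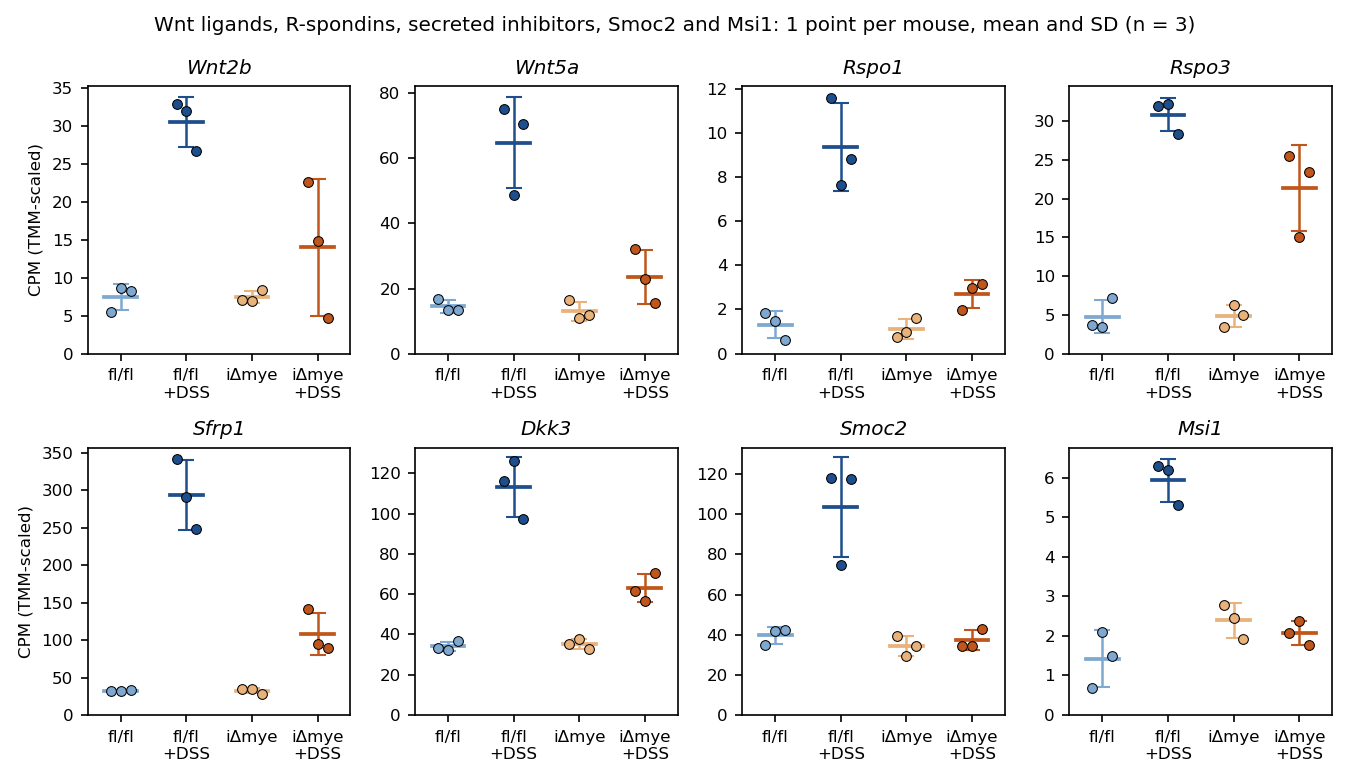
Levels of 6 stromal members and of Smoc2 and Msi1 in CPM (TMM-scaled, linear axes from 0), 1 point per mouse, with the mean as a bar and the SD as whiskers for the 3 mice of each group. In Tmem173fl/fl mice every colitic point lies above every untreated point for all 8 genes, and every colitic Tmem173iΔmye point lies below every colitic Tmem173fl/fl point, also for Wnt2b, Rspo3 and Dkk3, which were not called between these groups. The 8 genes are a selection. Of all 12 stromal members 9 lay higher and 1 lower without overlap with DSS (23.9% and 25.4% of all genes). Between colitic genotypes 7 lay lower and 1 higher (14.8% and 12% of all genes).

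Markers of cell types moved with these members. Of 11 epithelial markers 5 were lower and 0 higher with DSS in Tmem173fl/fl mice, and of 14 fibroblast markers 12 were higher and 0 lower (median log2 fold changes -0.99 and 2.37). Endothelial (6 of 6), myeloid (9 of 10) and neuron and glia markers (6 of 7) were higher as well, with medians of 2.30, 2.43 and 1.55. Of all genes 14.9% were called higher and 7.61% lower. Of 10 cycling-cell genes 9 were lower, with sums of 1061 to 1338 CPM without and 230 to 420 CPM with DSS. The levels were therefore also set relative to each marker list, by scaling each library to the geometric mean of the 11 epithelial or the 14 fibroblast markers. This moved the median of all genes to 1.03 and -1.94, so that signs and counts of calls are to be read with that shift in mind. Such a scaling shifts all genes by nearly the same amount. The place of a gene relative to the shifted median therefore repeats its TMM-scaled value and is no separate test.

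Relative to epithelial markers Lgr5 (-2.76, edgeR adjusted p 1.2e-05), Ascl2 (-3.02, edgeR adjusted p 1.4e-05) and Axin2 (-1.40, edgeR adjusted p 0.0012) were still called lower. Ephb3 (-0.34), Rnf43 (-0.37), Lgr4 (-0.21) and Sox9 (-0.12) were not, with edgeR adjusted p from 0.39 to 0.78. Of the called members 22 were then higher and 3 lower, where 42% of all genes were called.

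Relative to fibroblast markers Sfrp1 (1.24, edgeR adjusted p 1e-05) and Olfm4 were the only members still called higher, and 22 were called lower, where 66.9% of all genes were called. Rspo1 was at 0.90, Rspo3 at 0.80, Wnt2b at 0.09 and Dkk2 at 0.02. Wnt4 (-0.46), Dkk3 (-0.18), Smoc2 (-0.57), Nkd1 (-0.37), Tcf7 (-0.57) and Lef1 (-0.53) had the opposite sign from the TMM-scaled values. None of these 6 was called. How much of any change came from the number of cells of each type was not tested.

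**Figure D3:**
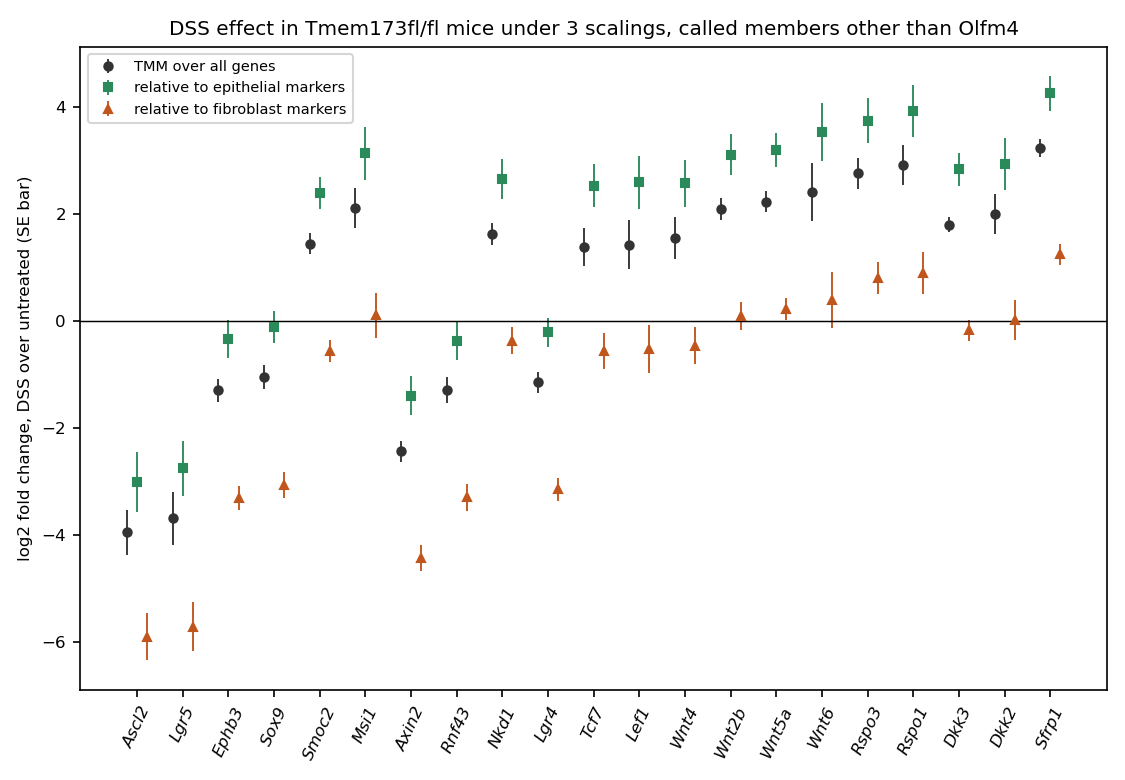
Log2 fold changes with DSS in Tmem173fl/fl mice (point, with the SE as a bar) of 21 of the 22 called members, Olfm4 left out for its low counts, under scaling by TMM over all genes, relative to 11 epithelial markers (median of all genes 1.03) and relative to 14 fibroblast markers (median -1.94). Lgr5, Ascl2 and Axin2 lie below 0 and Sfrp1 above 0 under all 3 scalings, while Ephb3, Sox9, Rnf43 and Lgr4 lie near 0 relative to epithelial markers and most stromal members near 0 relative to fibroblast markers.

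In Tmem173iΔmye mice the same comparison with DSS called 5 members, against 2.08% of all genes: Lgr5, Ephb3 and Axin2 were lower, and Rspo3 and Sfrp1 higher (0.597% of all genes were called lower and 1.48% higher). The median log2 fold change was -0.21 on the epithelial and 0.90 on the stromal side, where that of all genes was 0.02. Of the members 6 had an adjusted p under 0.05 at any fold (2.17% of all genes), and without overlap 9 lay higher and 5 lower (12.1% and 9.41% of all genes). Both comparisons with DSS use separate mice, and the 5 members were called with the same sign in both. Of the marker lists, 3 of 14 fibroblast markers were higher (median log2 fold change 0.97), 4 of 10 cycling-cell genes lower (median -1.14) and 0 of 11 epithelial markers called (median -0.40), and their part in the members' changes was not tested.

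Lgr5 was at 10.4, 10.4 and 12.3 CPM without and 0.997, 0.311 and 2.18 CPM with DSS in these mice (log2 fold change -3.23, SE 0.55, edgeR adjusted p 0.017). Axin2 went from 45.0, 40.5 and 69.5 CPM to 7.76, 5.54 and 14.6 CPM (log2 fold change -2.47, SE 0.37, edgeR adjusted p 0.010). These groups did not overlap either, and colitic replicate 5 was the highest of the colitic mice for both genes.

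Ephb3 went from 42.8, 35.5 and 72.8 CPM to 21.4, 10.8 and 20.3 CPM (log2 fold change -1.53, SE 0.33, edgeR adjusted p 0.046). This call was lost in 11 of 20 alternative settings, while the log2 fold change stayed between -2.2 and -1.1. Among them were another filter, library totals without TMM, scaling to epithelial markers and leaving out the libraries of female pattern. Rspo3 went from 3.40, 6.22 and 4.99 CPM to 25.6, 15.1 and 23.5 CPM (log2 fold change 2.13, SE 0.32, edgeR adjusted p 0.011), and Sfrp1 from 34.5, 34.4 and 28.4 CPM to 141, 94.8 and 90.0 CPM (log2 fold change 1.74, SE 0.23, edgeR adjusted p 0.0056). All 3 genes had separate groups.

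Ascl2 did not pass here. It was at 4.37, 4.73 and 4.69 CPM without and 0.926, 0.187 and 4.37 CPM with DSS, so that replicate 5 equalled the untreated mice while the other two were far below (log2 fold change -1.32, SE 0.76, edgeR adjusted p 0.45). Sox9, at 74.4, 63.9 and 86.1 CPM against 39.8, 44.5 and 76.7 CPM, also had replicate 5 within the untreated range (log2 fold change -0.48, edgeR adjusted p 0.42). Myc was at 24.0, 32.8 and 29.8 CPM without and at 41.5, 18.7 and 49.9 CPM with DSS, without a common direction (log2 fold change 0.34, edgeR adjusted p 0.67). Olfm4 had 0 counts in the untreated Tmem173iΔmye libraries and 14 in the colitic ones, and the difference was not called (edgeR adjusted p 0.17).

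These calls depended on single libraries. Leaving out any 1 of the 3 untreated Tmem173iΔmye libraries left 0 members called, with adjusted p-values of edgeR between 0.055 and 0.25 for the 5 genes, leaving out replicate 1 of the colitic group left 3, and leaving out replicate 5 gave 9. The share of all genes called moved the same way, to between 0.212% and 0.299% without an untreated library, 0.987% without replicate 1 and 6.09% without replicate 5. On FPKM values limma called 0 members with a pseudocount of 0.1 or 1, and 0.257% and 0.241% of all genes.

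**Figure D4:**
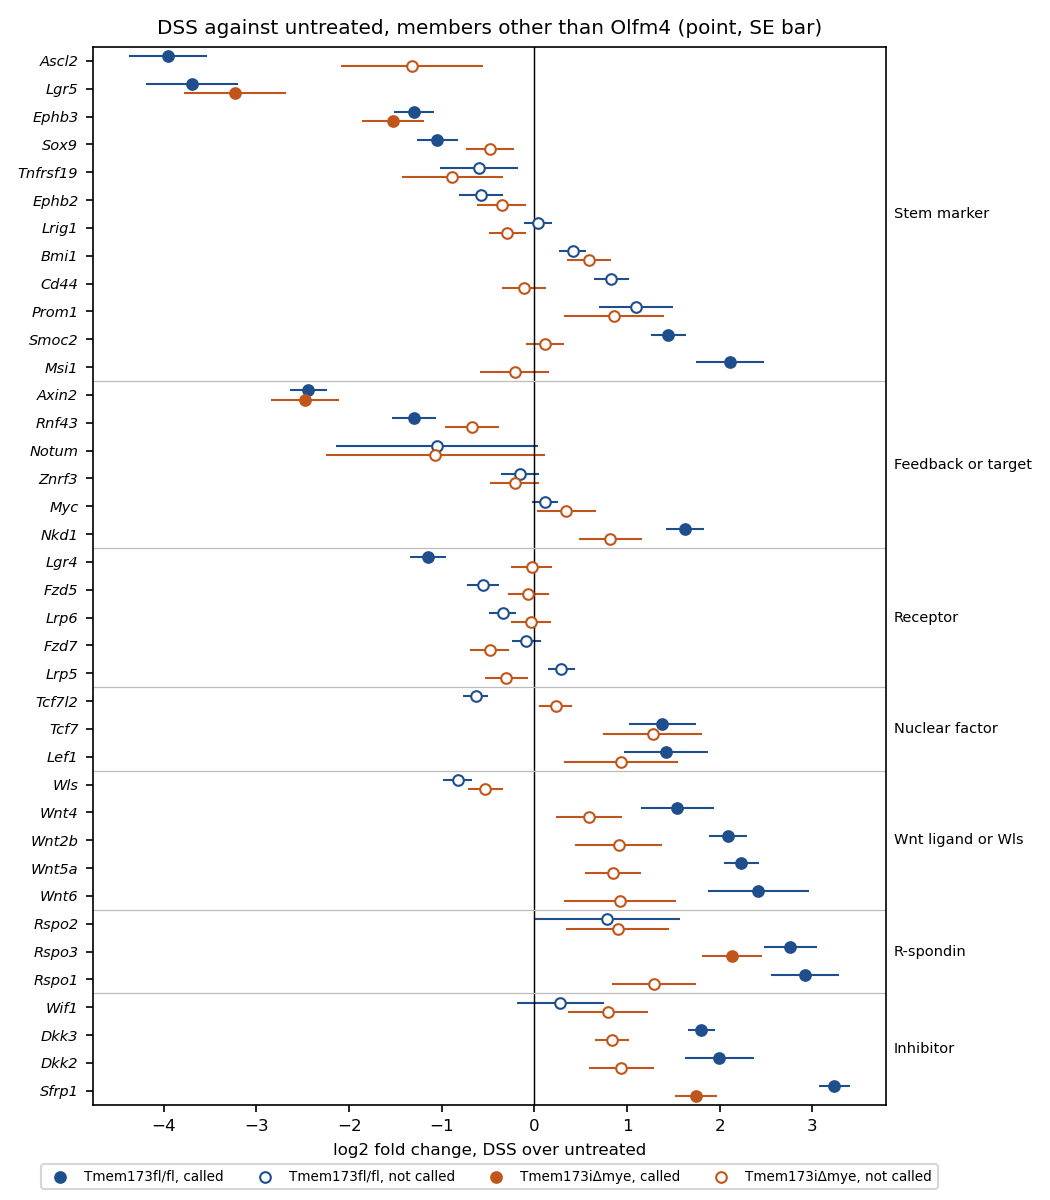
Log2 fold changes of DSS over untreated (point, with the SE as a bar) for 38 members in Tmem173fl/fl (blue) and Tmem173iΔmye mice (orange), grouped by role, with filled points for called members. Olfm4 is left out for its low counts. Lgr5, Ephb3 and Axin2 are called lower and Rspo3 and Sfrp1 higher in both genotypes, and the other called members are called in Tmem173fl/fl mice alone, which is not a test of a difference.

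Between the untreated genotypes edgeR called 0 members and 0% of all genes, and 1 member had an unadjusted p under 0.05. DESeq2 and limma called 0 members as well, and DESeq2 called 3 genes of all it tested. Without overlap 1 member lay higher and 2 lower, against 3.67% and 3.68% of all genes. The median log2 fold change of the members was -0.03 (all genes 0.00). Lgr5 differed by -0.11 (SE 0.32) and Axin2 by 0.08 (SE 0.21), so that differences of a size like these standard errors were not detectable.

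Between colitic mice the question is which members differ with myeloid STING loss. Of 39 members 6 were called, all lower in Tmem173iΔmye mice: the stromal members Sfrp1, Wnt5a and Rspo1, and Smoc2, Msi1 and Olfm4 among the stem cell markers. Of all genes 2.81% were called (1.99% lower and 0.822% higher). All 6 had risen with DSS in Tmem173fl/fl mice, and both comparisons share the colitic Tmem173fl/fl libraries. The median log2 fold change was -0.81 on the stromal and 0.14 on the epithelial side (all genes 0.02). Without overlap between the groups, 13 members were lower and 5 higher, against 14.8% and 12% of all genes, and 8 had an adjusted p under 0.05 at any fold (3.11% of all genes).

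Sfrp1 was at 342, 291 and 249 CPM in colitic Tmem173fl/fl and at 141, 94.8 and 90.0 CPM in the colitic knockout mice (log2 fold change -1.44, SE 0.24, edgeR adjusted p 0.025). Wnt5a was at 75.1, 48.8 and 70.6 CPM against 32.1, 22.9 and 15.7 CPM (log2 fold change -1.47, SE 0.29, edgeR adjusted p 0.036), and Rspo1 at 11.6, 7.67 and 8.85 CPM against 2.0, 2.98 and 3.15 CPM (log2 fold change -1.79, SE 0.31, edgeR adjusted p 0.027). In each case all 3 knockout mice lay below all 3 control mice.

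Smoc2 was at 118, 74.9 and 118 CPM against 34.2, 34.6 and 43.0 CPM (log2 fold change -1.48, SE 0.22, edgeR adjusted p 0.018). Msi1 was at 6.28, 6.20 and 5.31 CPM against 2.07, 2.36 and 1.76 CPM (log2 fold change -1.53, SE 0.29, edgeR adjusted p 0.033). Olfm4 was at 3.14, 3.46 and 4.22 CPM against 0.356, 0.498 and 0.0607 CPM (log2 fold change -3.55, SE 0.57, edgeR adjusted p 0.022), which is 14 counts in all in the knockout libraries. The groups of these 3 genes did not overlap, though Olfm4 had entered the tests only through its level in the colitic Tmem173fl/fl group, so that its call adds no support to the count of 6.

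None of Lgr5, Axin2, Ascl2, Sox9 and Myc was called between the colitic genotypes. Lgr5 differed by 0.42 (SE 0.69, edgeR adjusted p 0.78), Axin2 by 0.11 (SE 0.38, edgeR adjusted p 0.91), Ascl2 by 2.32 (SE 0.99, edgeR adjusted p 0.24), Sox9 by 0.82 (SE 0.32, edgeR adjusted p 0.20) and Myc by 0.29 (SE 0.33, edgeR adjusted p 0.66). Of these 5 genes only Sox9 had groups without overlap, with the colitic knockout mice higher. The standard errors are large, and a moderate difference in either direction was not detectable for Lgr5 or Ascl2. Without replicate 5, which is also the library of female pattern, Lgr5 differed by -0.43 and Axin2 by -0.38, with the sign turned, and Ascl2 by 0.59 (SE 0.84, edgeR adjusted p 0.75). Tcf7l2 was higher in Tmem173iΔmye mice, at 128, 127 and 139 CPM against 81.0, 64.5 and 75.8 CPM (log2 fold change 0.82, SE 0.16, edgeR adjusted p 0.036), a separate pair of groups but under 2-fold. Lgr4 was at 185, 317 and 245 CPM against 125, 89.2 and 148 CPM, again without overlap, and did not pass (log2 fold change 1.03, SE 0.26, edgeR adjusted p 0.072).

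Fibroblast markers moved with the called stromal members and Smoc2 here too, with 8 of 14 lower and 0 higher in colitic Tmem173iΔmye mice (median log2 fold change -1.23). The part of fibroblasts in the lower Smoc2 was not tested. Of 11 epithelial markers 1 was called higher, with a median of 0.76 and summed levels that did not overlap. Their part in the differences of Tcf7l2, Sox9 and Lgr4 was not tested. Of 10 myeloid markers 4 were lower and 0 higher (1.99% of all genes were called lower), and their part in these differences was not tested. Relative to the fibroblast markers, which moved the median of all genes to 1.23, Sfrp1 and Wnt5a were at -0.24, Smoc2 at -0.23, Msi1 at -0.29 and Rspo1 at -0.52, and none of these 5 was called. All 5 lay well below that median, which repeats their TMM-scaled difference and is no separate test. Olfm4 kept its call, and 20 members were called higher, where 47.7% of all genes were called. Relative to the epithelial markers, which moved the median of all genes to -0.64, 12 members were called, all lower (12.2% of all genes). Leaving out replicate 1 or 3 of colitic Tmem173fl/fl, or replicate 2 of colitic Tmem173iΔmye mice, left 0 members called, and leaving out replicate 2 of colitic Tmem173fl/fl left 1. Of all genes 0.112%, 0.51%, 0.191% and 0.846% were then called, in the same order. Without replicate 5 of colitic Tmem173iΔmye mice, the library of female pattern, 4 members were called, and Wnt5a and Msi1 lost their calls. Without replicate 1 of that group 8 were called (2.11% and 6.61% of all genes in these 2 cases). Msi1 was not called with a replicate block either. Limma on FPKM called 0 members with a pseudocount of 0.1 and 1 with a pseudocount of 1, and 0.581% and 0.639% of all genes.

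**Figure D5:**
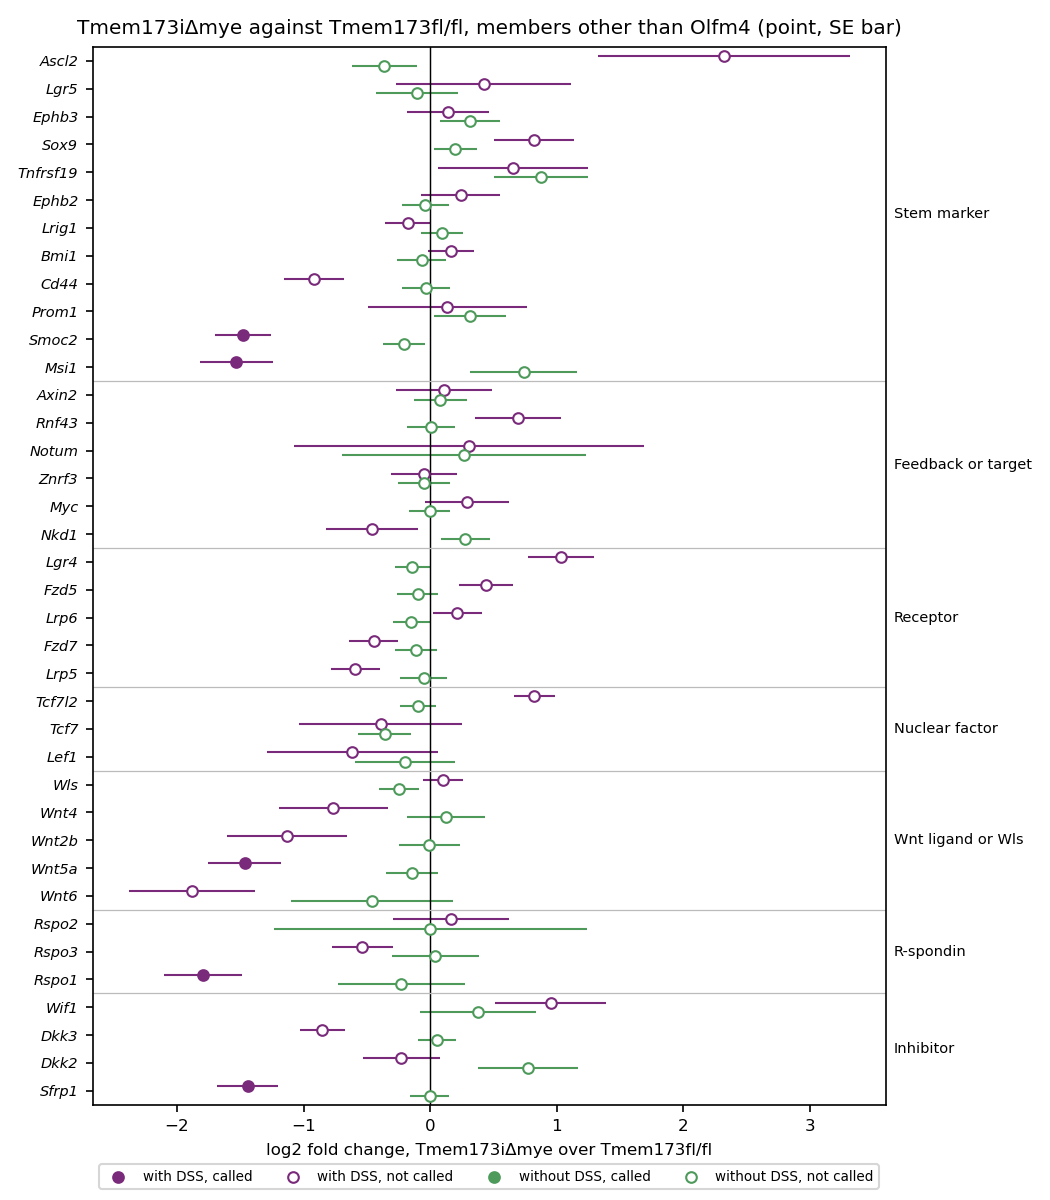
Log2 fold changes of Tmem173iΔmye over Tmem173fl/fl (point, with the SE as a bar) for 38 members in colitic (purple) and untreated mice (green), grouped by role, with filled points for called members and Olfm4 left out for its low counts. With DSS Smoc2, Msi1, Wnt5a, Rspo1 and Sfrp1 are called lower, and no untreated point is filled.

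Whether the DSS response itself differed between genotypes was tested as an interaction over all 12 libraries. It called 3 members, and in all 3 the effect of DSS was lower in Tmem173iΔmye mice, against 2.55% of all genes (1.61% lower and 0.934% higher). Fibroblast markers were lower in 6 of 14 and epithelial markers higher in 2 of 11 cases in the same test. Sfrp1 was at -1.43 (SE 0.27, edgeR adjusted p 0.014), Smoc2 at -1.26 (SE 0.27, edgeR adjusted p 0.030) and Msi1 at -2.25 (SE 0.51, edgeR adjusted p 0.034). Sfrp1 thus rose in both genotypes and less in Tmem173iΔmye mice. For Smoc2 and Msi1 the DSS effect in Tmem173iΔmye mice was 0.11 and -0.21, neither of which passed.

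At any fold 5 members had an adjusted p under 0.05, against 2.65% of all genes. The 2 added were under 2-fold: Dkk3 had an interaction of -0.90 (SE 0.21, edgeR adjusted p 0.038) and Tcf7l2 of 0.93 (SE 0.20, edgeR adjusted p 0.028). Tcf7l2 was at 104, 123 and 108 CPM in untreated and 128, 127 and 139 CPM in colitic Tmem173iΔmye mice, with no overlap between these groups, as held upwards for 12.1% of all genes, but the change with DSS in Tmem173iΔmye mice was 0.23 and did not pass (edgeR adjusted p 0.59). Relative to epithelial markers the interaction of Tcf7l2 was 0.29 (edgeR adjusted p 0.59), under a scaling that moved the median of all genes to -0.62. Lgr4, at 1.19 (SE 0.30), was just outside the threshold (edgeR adjusted p 0.052).

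For the genes that fell with DSS in both genotypes the interaction was 0.54 (SE 0.78) for Lgr5, 0.04 (SE 0.44) for Axin2 and -0.16 (SE 0.43) for Ephb3, and no difference in their fall was detectable. Without the 3 libraries of female pattern the interaction called 0 members and 0.834% of all genes, and Sfrp1 was then at -1.45 (edgeR adjusted p 0.060). Relative to fibroblast markers the interaction was -0.21 for Sfrp1 and 0.02 for Smoc2, and neither was called, with the median of all genes moved to 1.27. Under that scaling 16 members were called, all of them higher, where 42.2% of all genes were called. Of the 3 called members Smoc2 lost its call without 8 and Msi1 without 9 of the 12 libraries left out singly, and Sfrp1 kept it without any 1 of the 12. The count was 1 without replicate 1 or 3 of either untreated group or replicate 1 of colitic Tmem173fl/fl mice, and 5 without replicate 1 of colitic Tmem173iΔmye mice, where 1.11% to 1.3% and 7.17% of all genes were called.

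Beyond the 39 members, 60 further genes of the Wnt pathway were followed, of which 44 passed the filter. With DSS in Tmem173fl/fl mice 17 rose and 2 fell (median log2 fold change 0.53), against 14.9% and 7.61% of all genes. One of the 17, Wnt9b, named here after its values were seen, passed the filter only through the 3 colitic Tmem173fl/fl libraries (0 CPM in untreated Tmem173fl/fl and 0.953 to 1.79 CPM in colitic Tmem173fl/fl mice), so its call gives no support to that count. Sfrp5, a secreted Frizzled-related inhibitor, at 2.57, Fzd1, a Frizzled receptor, at 2.32, Apcdd1, a membrane inhibitor, at 2.25 and Sostdc1, a secreted inhibitor of Wnt and BMP signals, at 2.12 had the largest rises among those with a mean FPKM of at least 1 (edgeR adjusted p from 7e-06 to 0.00096). Tcf7l1, a mostly repressive TCF protein, fell by 1.28 (edgeR adjusted p 0.0081).

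In Tmem173iΔmye mice 0 of these genes rose and 1 fell, against 1.48% and 0.597% of all genes, namely Fzd9, at -3.82 (edgeR adjusted p 0.0038) and with a mean FPKM of 0.822. Kremen1, which acts with Dickkopf proteins, was the 1 gene called between colitic genotypes, at -1.03 (edgeR adjusted p 0.032), and Sfrp5 the 1 gene called in the interaction, at -1.91 (edgeR adjusted p 0.033). A single call among 44 genes is near the background of 2.81% and 2.55% of all genes in these comparisons.

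Promoter sequences, from 250 bases before to 50 bases after a start site (RefSeq, GRCm38.p6, the build of the counts), were matched for 25 of the 39 members, 33 promoters in all. The letters CTTTG followed by AA, AT, TA or TT, which TCF and LEF proteins can bind, were searched on both strands. They were found in 4 of 33 member promoters (12.1%), against 16.9% of the 32851 promoters of the table. Among members that fell with DSS in Tmem173fl/fl mice 0 of 6 promoters held them, and among those that rose 1 of 13, that of a start site within Lef1. AP-1 letters, TGANTCA, were in 2 of 33 (6.06%), both of Prom1, against 7.81% of all. A match is a description and not a bound site, and no match says only that these letters are not in this window. Member promoters were rich in G and C, with a median of 64.3% and of 18 CG pairs, against 52.7% and 7 in the whole table.

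Printed below are Axin2 and Ephb3, because these genes fell in both genotypes, and the start sites within Lef1 and Tcf7l2 whose windows hold TCF/LEF letters, shown in capitals. They lie at chr11:108920099-108920398 (Axin2), chr16:21204545-21204844 (Ephb3), chr3:131156044-131156343 (Lef1) and chr19:55895071-55895370 (Tcf7l2), all on the plus strand. The G and C share was 70.0% for Axin2 and 66.7% for Ephb3, but 43.7% for Lef1 and 42.0% for Tcf7l2. The Lef1 match starts 147 bases before the start site on the strand opposite to the gene, and the Tcf7l2 match 14 bases before it on the strand of the gene.
Axin2: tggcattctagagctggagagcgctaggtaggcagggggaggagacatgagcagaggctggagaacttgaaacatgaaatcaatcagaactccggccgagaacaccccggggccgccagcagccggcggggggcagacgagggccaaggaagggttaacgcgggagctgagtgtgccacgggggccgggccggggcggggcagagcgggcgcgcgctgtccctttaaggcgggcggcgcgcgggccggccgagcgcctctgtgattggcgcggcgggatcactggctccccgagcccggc
Ephb3: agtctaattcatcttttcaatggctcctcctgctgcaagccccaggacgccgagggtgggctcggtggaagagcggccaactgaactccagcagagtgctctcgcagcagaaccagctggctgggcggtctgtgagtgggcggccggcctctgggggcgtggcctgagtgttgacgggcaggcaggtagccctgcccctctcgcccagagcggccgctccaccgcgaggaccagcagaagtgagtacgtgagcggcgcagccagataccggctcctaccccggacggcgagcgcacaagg
Lef1: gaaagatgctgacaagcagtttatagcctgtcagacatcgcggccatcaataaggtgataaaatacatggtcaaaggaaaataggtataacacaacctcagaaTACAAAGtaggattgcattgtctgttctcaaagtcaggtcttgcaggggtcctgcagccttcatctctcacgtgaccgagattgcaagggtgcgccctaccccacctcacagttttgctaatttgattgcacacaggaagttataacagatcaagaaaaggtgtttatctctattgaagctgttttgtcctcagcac
Tcf7l2: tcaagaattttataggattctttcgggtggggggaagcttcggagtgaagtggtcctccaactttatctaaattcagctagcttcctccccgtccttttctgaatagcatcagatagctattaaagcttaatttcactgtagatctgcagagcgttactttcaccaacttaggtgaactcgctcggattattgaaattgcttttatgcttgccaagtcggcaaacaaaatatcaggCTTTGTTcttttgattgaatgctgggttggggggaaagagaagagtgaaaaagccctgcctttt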

How the data were processed

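Counts per gene of RNA from mouse colon in 12 libraries were deposited by the authors as whole numbers, next to FPKM values that the authors derived from them. The submitters' processing notes name CASAVA 1.8, fastp, HISAT2 2.0.5, featureCounts 1.5.0-p3 and DESeq2 1.20.0 with GRCm38 (mm10), and the use of strand is not given in the sources used here. A further 25 columns hold the authors' own comparisons (group means, log2 fold changes, p-values) and were not used. 0 columns belonged to other samples.

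Groups came from the sample titles. A gene entered the tests if 3 or more libraries reached an FPKM of 0.1 (24102 genes), and these were run as quasi-likelihood F tests of edgeR 4.0.16 (TMM scaling, R 4.3.3) on the deposited counts, with only the groups compared in a fit and all 12 libraries in the interaction. P-values were adjusted over all genes tested (Benjamini-Hochberg), and the SE is the absolute log2 fold change divided by the square root of F. A gene was called at an adjusted p under 0.05 and a 2-fold change. The script was tested on simulated counts. Alternatives were other filters and scalings, offsets from marker lists, DESeq2 1.42.0, limma 3.58.1 on log2(FPKM + 0.1) or log2(FPKM + 1), other thresholds, a replicate block, and libraries left out.

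The members and all gene lists were chosen with earlier results of these data known. Values per mouse are given for Lgr5, Ascl2, Olfm4, Axin2, Sox9 and Myc, for members called in any comparison (with DSS in Tmem173fl/fl mice, up to 5 per role and direction by size), and for some others that were named after their values were seen (Tcf7l2 and Lgr4 in all groups, and ranges of Lrig1). Other Wnt genes were named by size, up to 4 per direction with a mean FPKM of at least 1, and Fzd9 outside that rule after its values were seen. The lists were epithelial, colonocyte, cycling, regenerating epithelium, fibroblast, smooth muscle, T cell, B cell, myeloid, endothelial, neuron and glia, pancreas and sex-linked genes. Each library is 1 mouse, and counting intervals cover counting error only.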

Additional observations from a re-analysis of the deposited data

Results flagged for a closer look

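For 5 members the effect of DSS differed between Tmem173fl/fl and Tmem173iΔmye mice by the interaction test of edgeR, at an adjusted p under 0.05 over all genes, against 2.65% of all genes. Without the 3 libraries of female pattern the interaction called 0 members. The interaction log2 fold change was -1.26 for Smoc2, -2.25 for Msi1, -1.43 for Sfrp1 and -0.90 for Dkk3, so that DSS raised these genes less in Tmem173iΔmye mice or not detectably. For Tcf7l2 it was 0.93, and this gene was singled out also because all 3 colitic mice lay below the untreated mice in Tmem173fl/fl and above them in Tmem173iΔmye mice, where its change was 0.23 and did not pass (edgeR adjusted p 0.59) and the groups of 12.1% of all genes lay apart upwards. The effects of Dkk3 and Tcf7l2 were under 2-fold.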

How the results depend on the processing

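With DSS in Tmem173fl/fl mice 22 members were called, and from 15 to 27 under the alternatives (19 to 22 with 1 library left out). The split was 22 higher and 3 lower relative to epithelial markers (42% of all genes called) and 2 higher and 22 lower relative to fibroblast markers (66.9%), where Smoc2 (-0.57), Nkd1 (-0.37), Tcf7 (-0.57), Lef1 (-0.53), Wnt4 (-0.46) and Dkk3 (-0.18) turned sign, as did the interaction of Smoc2 (0.02). The latter scaling moved the median of all genes to -1.94 with DSS and to 1.27 in the interaction. Between untreated genotypes 0 members were called throughout. The other counts moved more, and the cause was not tested. With DSS in Tmem173iΔmye mice 5 members were called, 2 higher and 3 lower. There were 8 relative to epithelial markers (6 higher and 2 lower) and 10 relative to fibroblast markers (2 higher and 8 lower). Of all genes 5.66% and 10.8% were then called, with medians of 0.43 and -0.64. Limma called 0 members at either pseudocount (0.257% and 0.241%), 8 passed at an unadjusted p of 0.05 (9.1%), and 0 to 9 were called with 1 library left out. Between colitic genotypes (6, all lower) there were 12 relative to epithelial markers (all lower) and 21 relative to fibroblast markers (20 higher and 1 lower), where 12.2% and 47.7% of all genes were called. Limma called 0 and 1 at pseudocounts of 0.1 and 1 (0.581% and 0.639%), 10 passed at an unadjusted p (10.4%), and 0 to 8 were called with 1 library left out. In the interaction (3, all lower) there were 5 with no filter, with library totals, with DESeq2 and at an adjusted p alone (3.69%, 3.32%, 7.78% and 2.65% of all genes, against 2.55%). Relative to epithelial markers 8 were called, all of them lower (6.07% of all genes, whose median moved to -0.62). Relative to fibroblast markers 16 were called, all of them higher (42.2% of all genes, whose median moved to 1.27). The count was 7 at an unadjusted p (11.4%), 0 without the libraries of female pattern, and 1 to 5 with 1 library left out. Replicate numbers did not pair the mice: over 15 pairs of same-numbered libraries the correlation of deviations ran from -0.08 to 0.108 and was over 0.1 in 1. With a replicate block the counts were 22 and 9 for DSS in Tmem173fl/fl and Tmem173iΔmye mice (20.5% and 5.68% of all genes), 0 and 7 for untreated and colitic genotypes (0.39% and 3.52%), and 4 for the interaction (2.45%). At 3 mice a group and these depths, genes near 0 such as Olfm4, Notum and Rspo2 allow no precise fold.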

Other observations

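Gene groups next to the stem cell and Wnt members moved as follows, where edgeR called 14.9% of all genes higher and 7.61% lower with DSS in Tmem173fl/fl mice and 1.48% and 0.597% in Tmem173iΔmye mice. The shares were 0.822% higher and 1.99% lower between colitic genotypes, and 0.934% and 1.61% in the interaction. Of 8 colonocyte genes 4 fell and 1 rose with DSS in Tmem173fl/fl mice, and between colitic genotypes 2 were higher in Tmem173iΔmye mice. Of 8 genes of regenerating epithelium, such as Ly6a and Clu, 2 rose and 1 fell with DSS in Tmem173fl/fl mice, and 1 rose in Tmem173iΔmye mice. Their summed level was 1080 to 2178 CPM in untreated Tmem173fl/fl and 1188 to 1662 CPM in untreated Tmem173iΔmye mice. It was 953 to 1079 CPM in colitic Tmem173fl/fl and 1650 to 2415 CPM in colitic Tmem173iΔmye mice, with 1 of the 8 called higher between these groups by edgeR. Ly6a had mean levels of 308 and 988 CPM in the colitic groups, in that order, and Clu went the other way, at 180 and 130 CPM. All 6 endothelial markers rose with DSS in Tmem173fl/fl mice and 0 of 6 in Tmem173iΔmye mice, with 2 of 6 lower in the interaction. Of 10 myeloid markers 9 rose in Tmem173fl/fl and 5 in Tmem173iΔmye mice, 4 were lower between colitic genotypes and 1 was lower in the interaction. Of 7 neuron and glia markers 6 rose in Tmem173fl/fl and 2 in Tmem173iΔmye mice, and edgeR called 0 of the 7 between colitic genotypes and 0 in the interaction. Of 10 T cell markers 1 fell with DSS in Tmem173fl/fl mice, and of 6 B cell markers 0 were called in any comparison by edgeR. Of 8 smooth muscle markers 0 were called in any comparison by edgeR, and of 7 pancreas genes 0, with the pancreas sums spread from 0 to 8920 CPM. Of 5 sex-linked genes 1 was lower with DSS in Tmem173fl/fl mice, whose untreated group holds 1 library of female pattern and whose colitic group 0.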
